A study of Mus musculus with 27 samples.

Results

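Ercc5, Xpc, Ddb2, Rrm2b, Polk, Polh and Ercc1 are 7 mouse genes of DNA repair and damage tolerance that are linked to the tumour suppressor p53. They were chosen by symbol, each taking the probe set annotated to that symbol alone. All 7 were found, each with 1 probe set, among 19938 genes measured. The arrays came from TAMH, an immortal mouse hepatocyte line established from animals bearing a transgene for TGF alpha, a growth factor that acts through the EGF receptor. The cells were exposed to acetaminophen (APAP) at 2 mM, to AMAP at 2 mM or to control medium. AMAP is the meta isomer of acetaminophen, with the hydroxyl group at a different position on the ring, and is used as a comparator of low toxicity to mouse liver. RNA was collected at 2, 6 and 24 h, giving 9 groups of 3 arrays, which the labels mark P30, P31 and P32 and which are called number 30, 31 and 32 here. All groups shared the transgenic line and a serum-free medium with dexamethasone, nicotinamide, insulin, transferrin and selenium. It is a single line, passages 25 to 35 were used, and 2 dishes were grown for each treatment. The numbers may be cell passages, which the labels do not state. Nor do the labels say whether the 3 arrays of a group came from separate cultures, so every p-value below measures the spread between these arrays, which may be technical.

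Nucleotide excision repair removes bulky lesions from DNA: damage is recognised, the strand is cut on both sides of the lesion, and the gap is filled. Lesions that remain can be copied by translesion polymerases, which accept damaged templates at some cost in accuracy, and both processes need deoxynucleotides. p53 is a transcription factor activated by DNA damage, and genes of each of these steps are among its known targets, with differences between mouse and human in which ones respond. In hepatocytes acetaminophen is oxidised to a reactive quinone imine that binds glutathione and protein.

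Median log2 signal per array over all 35557 probe sets ran from 6.92 to 7.07. Arrays of 1 group correlated at 0.992 to 0.997 over all genes. All 10 hepatocyte markers were measured, at a median percentile of 99.1 among genes, and their mean log2 signal per array was 12.14 to 12.57 with APAP at 24 h and 12.15 to 12.31 in the 24 h controls. The macrophage and leukocyte list had a median percentile of 21.3, the endothelial list 24.9 and the fibroblast list 53.3. Single markers of these lists stood high, Vim at 99.7, Dcn at 98.5 and Cd14 at 95.2. Cd14 was called lower at 6 h with APAP (-0.40) and with AMAP (-0.34), and Vim at 24 h with APAP (-0.24). The biliary and progenitor list, with 4 of 5 genes measured, had a median percentile of 74.6. Its mean log2 signal per array was 7.93 to 8.36 with APAP at 24 h, 7.82 to 8.46 with AMAP and 8.66 to 8.80 in the 24 h controls. The list's median difference from control was -0.51 with APAP, where 1 of the 4 genes, Sox9, was called lower (-0.35). With AMAP it was -0.65, where 0 were called by limma and 3 had an unadjusted p under 0.05. Sox9 was also called lower with APAP than with AMAP at 24 h (-0.47), so its mean with AMAP was not below control. The part of these markers in the results below was not tested.

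Acetaminophen raised 2 of the 7 genes, Ercc5, which cuts the damaged strand on its 3′ side, and Polk, a translesion polymerase. At 24 h both stood about 1 log2 unit above control, and the other 5 members lay between -0.19 and 0.31. AMAP lowered 1 member, Ercc1, at 24 h, and no other member passed the test with it. The Ercc1 result passed in only 12 of 20 other settings, and the 24 h rises of Ercc5 and Polk with APAP passed in all 20. Called means an adjusted p below 0.05 in limma, after Benjamini-Hochberg adjustment over all 19938 genes. With APAP, 1 member was called higher at 2 h, where 0.311% of all genes were, 2 at 6 h against 1.05%, and 2 at 24 h against 3.36%. No member was called lower with APAP, and 0.371%, 1.44% and 5.97% of all genes were. At 24 h 24 genes (0.12%) were both called and at least 2-fold higher, Ercc5 and Polk among them. With AMAP the counts were 0, 0 and 1 of 7, and 0.181%, 0.456% and 0.727% of all genes were called in either direction. In limma 0, 2 and 1 members had an unadjusted p under 0.05 with AMAP at 2, 6 and 24 h, as had 6.8%, 9.47% and 11.2% of all genes. The members' median difference from control with APAP was 0.08, 0.16 and 0.22 at the 3 times. The medians over all genes with APAP were 0.012, 0.001 and 0.018. Every array with APAP lay above every control array for 2 members at 2 h, 3 at 6 h and 5 at 24 h, which 9.46%, 7.71% and 13.3% of all genes also did. For AMAP these counts were 0, 1 and 3, against 4.51%, 6.51% and 8.71%. The comparisons with APAP and with AMAP share the control arrays. The balance of all called genes depended on scaling: the deposited values gave 62 higher and 74 lower at 2 h and 670 and 1190 at 24 h, centring each array on its median gave 54 and 117, and 518 and 1675. With the array number as a block the 2 h counts were 95 and 119, and the 91 genes called with AMAP at 6 h became 200. At 6 h the 210 higher and 288 lower became 264 and 232 under quantile normalization. The members called in these 3 comparisons were the same under both scalings. In cultured cells measured in bulk, fewer cells of a type and less RNA per cell cannot be told apart.

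**Figure D1:**
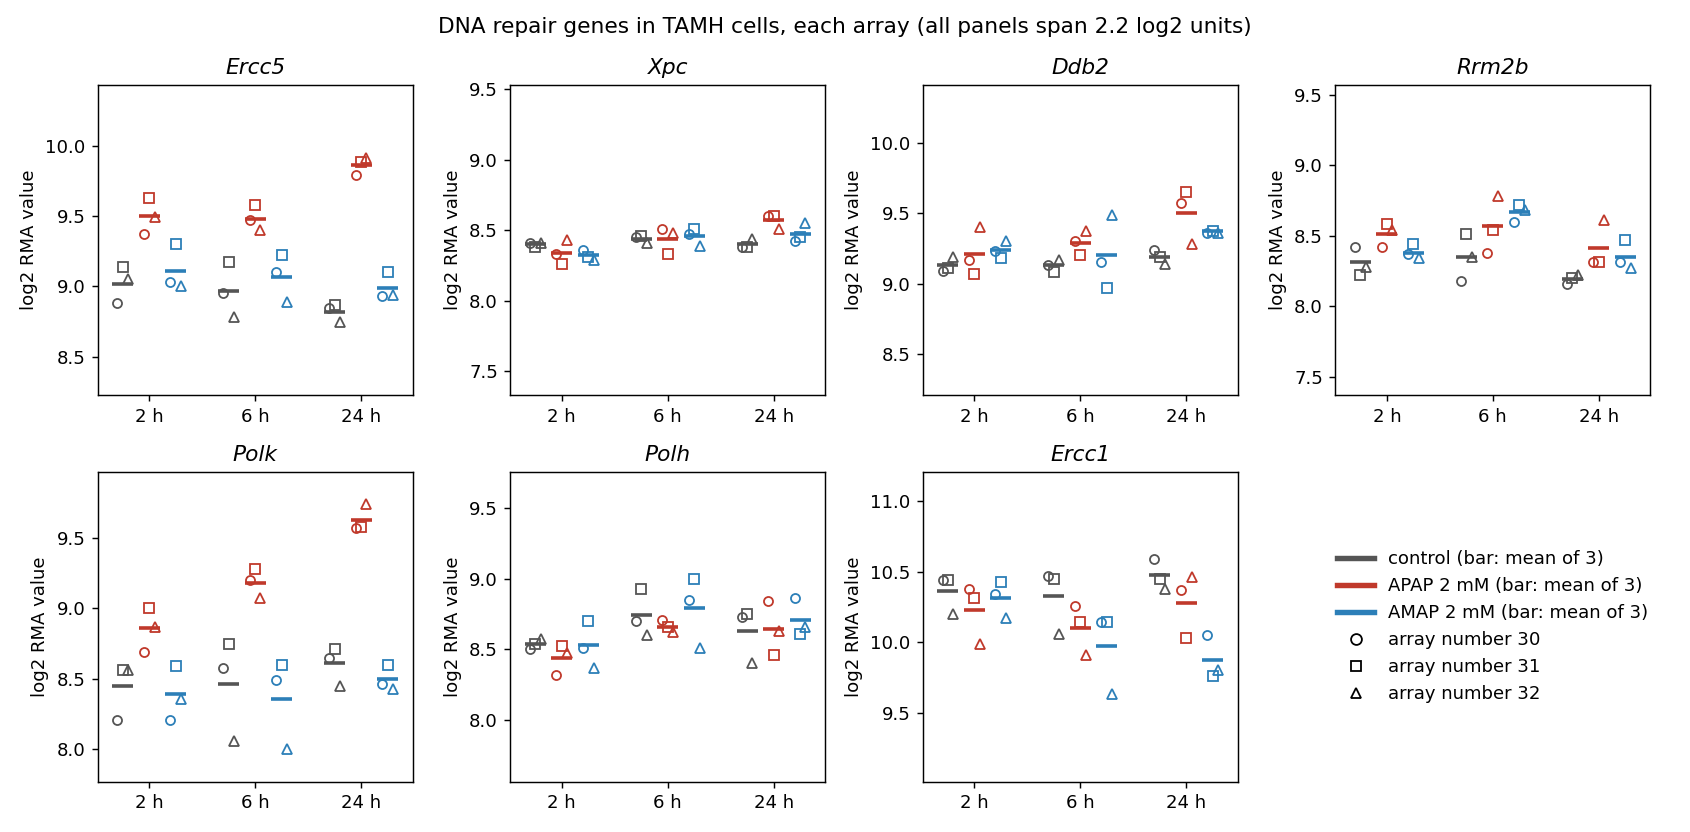
Log2 signal of each of the 7 genes in every array, by treatment and time, with points for the 3 arrays and bars for the group means. With APAP at 24 h Ercc5 lies between 9.79 and 9.91 and Polk between 9.57 and 9.74, above all arrays of the other 8 groups.

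Ercc5 encodes XPG, the endonuclease that cuts on the 3′ side of the lesion. At 2 h its log2 signal was 8.88, 9.14 and 9.05 in the control arrays and 9.37, 9.63 and 9.49 with APAP, with no overlap. The difference was 0.48 ± 0.10 (SE, n = 3 per group; 95% interval 0.26 to 0.69, adjusted p = 0.0208). At 6 h the control arrays read 8.95, 9.17 and 8.78 and the APAP arrays 9.47, 9.58 and 9.40, again apart, with a difference of 0.52 (interval 0.30 to 0.73, adjusted p = 0.00564). At 24 h the control arrays were at 8.85, 8.87 and 8.75 and the APAP arrays at 9.79, 9.88 and 9.91. That gap of 1.04 (interval 0.82 to 1.25, adjusted p = 5.89e-07) is a 2.05-fold rise, and ranked 11 by p among all genes. With AMAP the arrays read 8.93, 9.10 and 8.94 at 24 h, above the controls in all 3 arrays, but the difference of 0.17 did not pass the test (interval -0.05 to 0.38, adjusted p = 0.596). The 2 h call rested on few arrays: without APAP array 31 or 32, or control array 30 or 32, its adjusted p was 0.204, 0.0705, 0.160 and 0.0717, and it was 0.0875 when only those 6 arrays were fitted. Without number 30, 31 or 32 in every group the 2 h adjusted p was 0.499, 0.0906 and 0.140. The 6 h call held without any 1 array, but not without number 30 or number 32 in every group (adjusted p = 0.185 and 0.0929). The 24 h call held under each of 20 other settings, with differences of 0.97 to 1.09.

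Polk encodes DNA polymerase kappa, which extends past bulky lesions on guanine. At 2 h the control arrays read 8.21, 8.56 and 8.56 and the APAP arrays 8.69, 9.00 and 8.87, without overlap, but the difference of 0.41 ± 0.15 (SE, n = 3 per group; interval 0.10 to 0.72) did not pass the test (adjusted p = 0.319). At 6 h Polk rose from 8.58, 8.75 and 8.06 to 9.20, 9.28 and 9.07, a difference of 0.72 (interval 0.41 to 1.03, adjusted p = 0.00765). At 24 h it rose from 8.65, 8.71 and 8.45 to 9.57, 9.58 and 9.74, a difference of 1.03 (interval 0.72 to 1.34, adjusted p = 8.68e-05). The 6 h size leaned on the low control array 32: without it the difference was 0.52 and the adjusted p 0.0716, and without number 30 or 32 in every group the adjusted p was 0.128 and 0.0619. With AMAP, Polk was at 8.46, 8.60 and 8.43 at 24 h, overlapping the control values, and the difference of -0.11 did not pass the test (interval -0.42 to 0.20, adjusted p = 0.867). The 24 h rise with APAP held under each of 20 other settings, at 0.89 or more.

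Since Ercc5 and Polk both rose with APAP, the sequence around their start sites is shown. RefSeq's promoter table for GRCm38.p6 matched 4 of the 7 members, Ercc5, Polk, Polh and Ercc1, and gives 250 bases before and 50 after each start, with 2 windows for Polk. Each window was searched on both strands for the p53 decamer, the GC box GGGCGG, the CCAAT box, the TATA box TATAAA, the cAMP response element TGACGTCA, the AP-1 element TGANTCA, the E-box CACGTG and the E2F element TTTCGCGC. Capitals mark the matches, and in the first Polk window the p53 decamer and a second decamer with 1 mismatch, 1 base apart.
Ercc5, chr1:44147494-44147793, plus strand: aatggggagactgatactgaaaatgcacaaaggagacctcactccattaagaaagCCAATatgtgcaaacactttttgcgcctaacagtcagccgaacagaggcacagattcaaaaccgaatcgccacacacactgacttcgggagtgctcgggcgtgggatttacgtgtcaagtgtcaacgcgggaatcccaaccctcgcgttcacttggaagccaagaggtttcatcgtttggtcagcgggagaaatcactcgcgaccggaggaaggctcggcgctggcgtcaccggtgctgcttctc
Polk, chr13:96519138-96519437, minus strand: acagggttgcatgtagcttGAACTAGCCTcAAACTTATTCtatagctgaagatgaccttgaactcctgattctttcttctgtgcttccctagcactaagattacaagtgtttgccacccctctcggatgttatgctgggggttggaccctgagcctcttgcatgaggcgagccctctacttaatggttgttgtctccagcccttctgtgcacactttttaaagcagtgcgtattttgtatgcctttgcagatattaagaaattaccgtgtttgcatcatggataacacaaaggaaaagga
Polk, chr13:96542530-96542829, minus strand: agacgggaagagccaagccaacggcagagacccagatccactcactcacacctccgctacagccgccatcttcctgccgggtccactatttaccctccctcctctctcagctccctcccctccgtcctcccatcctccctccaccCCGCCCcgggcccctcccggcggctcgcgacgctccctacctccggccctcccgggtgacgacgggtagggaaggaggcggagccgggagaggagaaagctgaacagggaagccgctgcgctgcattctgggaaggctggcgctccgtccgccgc
The Ercc5 window held CCAAT, starting at -195 from the gene start and present in 37.4% of 32851 windows. Its closest pair of p53 decamers had 4 mismatches, and 89.3% of all windows hold a pair that close or closer. The first Polk window held a p53 decamer, GAACTAGCCT, from -231, and an exact decamer occurs in 8.36% of windows. A pair of decamers at most 13 bases apart with at most 1 mismatch, as there, occurs in 1.09%. The second Polk window held no exact p53 decamer, and its closest pair had 4 mismatches. Polk lies on the minus strand, so the first window lies downstream of the second. GC content was 44.3% in the first and 68.7% in the second. The second Polk window held GGGCGG on the opposite strand from -105. The Ercc1 window held GGGCGG on the opposite strand too and the Polh window on the gene's own strand. On either strand 35.7% of all windows hold it. A match is a description of the letters, and no binding was measured here.

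Ercc1 encodes the partner of the XPF endonuclease, which cuts on the 5′ side of the lesion. At 24 h the control arrays read 10.59, 10.45 and 10.38 and the AMAP arrays 10.05, 9.76 and 9.80, all below every control. Ercc1 fell by 0.61 ± 0.14 on the log2 scale (SE, n = 3 per group; interval of the difference -0.90 to -0.31, adjusted p = 0.0411), 1 of 7 members called lower where 0.416% of all genes were. With APAP the 24 h arrays were at 10.37, 10.03 and 10.46, overlapping the controls, with a difference of -0.19 (interval -0.49 to 0.10, adjusted p = 0.476). The AMAP difference was -0.05 at 2 h and -0.36 at 6 h (adjusted p = 0.401), where the arrays of the 2 groups overlapped. The 24 h call was lost without AMAP array 31 or 32 (adjusted p = 0.205 and 0.125), without control array 30, 31 or 32 (0.155, 0.124 and 0.0929), and when every probe set was tested (0.113). It was also lost without number 30 or number 31 in every group (0.299 and 0.446). The difference stayed at or below -0.55 in each of these fits. In the same comparison the biliary and progenitor markers had the median difference of -0.65 given above, whose part in this result was not tested.

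Xpc and Ddb2 recognise damage. Xpc binds distorted helices, and Ddb2 binds ultraviolet photoproducts and hands them on to Xpc. With APAP at 24 h the Ddb2 arrays read 9.57, 9.65 and 9.28 against 9.24, 9.19 and 9.14 in the controls, all above, and the difference was 0.31 (interval 0.09 to 0.52, adjusted p = 0.0648). APAP array 32 lay lowest of those 3. Without it the difference was 0.42 and the adjusted p 0.0145, and array weights and the filter on dim genes gave 0.00628 and 0.0450 with all arrays. Most of the 20 other settings gave no call for Ddb2. Over them the difference ran from 0.23 to 0.42 and the adjusted p from 0.00628 to 0.384. Xpc read 8.60, 8.60 and 8.51 with APAP and 8.38, 8.38 and 8.44 in the controls at 24 h, also apart, with a difference of 0.17 that did not pass the test (interval 0.03 to 0.30, adjusted p = 0.119). With AMAP at 24 h Ddb2 read 9.36, 9.37 and 9.36, above every control, with a difference of 0.18 (interval -0.04 to 0.39), and Xpc differed by 0.07. At 2 and 6 h neither gene passed the test with either compound, and their differences lay between -0.08 and 0.16.

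Polh encodes DNA polymerase eta, which copies past ultraviolet dimers. Its arrays overlapped in every comparison of APAP, AMAP and control at the same time. The APAP differences were -0.10, -0.08 and 0.01 at 2, 6 and 24 h, and the last had an interval of -0.23 to 0.26, so changes within those bounds cannot be told from none. Polh was at 8.84, 8.46 and 8.63 with APAP and 8.73, 8.75 and 8.40 in the controls at 24 h.

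Rrm2b encodes the p53-inducible small subunit of ribonucleotide reductase, which supplies deoxynucleotides outside S phase. It was not called in any comparison, although its differences with APAP were alike at the 3 times, 0.21, 0.22 and 0.22 (adjusted p = 0.527, 0.342 and 0.185). At 24 h the APAP arrays were at 8.31, 8.31 and 8.61 and the controls at 8.16, 8.20 and 8.22, without overlap. The largest Rrm2b difference came with AMAP at 6 h, 8.60, 8.72 and 8.68 against 8.18, 8.51 and 8.35, all above. It amounted to 0.32 (interval 0.12 to 0.52, adjusted p = 0.199).

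Against AMAP at the same dose and time, APAP gave 0, 1 and 2 members called higher at 2, 6 and 24 h, where 0.0953%, 0.476% and 1.87% of all genes were. Of the 7 members, 2 had an unadjusted p under 0.05 at 2 h by limma, as had 9.33% of all genes. These comparisons share the APAP arrays with those against control. Every APAP array lay above every AMAP array for 2 members at each of the 3 times, as it did for 9.7%, 5.09% and 12.3% of all genes. Ercc5 was higher with APAP by 0.87 at 24 h (interval 0.66 to 1.09, adjusted p = 5.51e-06), and Polk by 1.13 (adjusted p = 2.76e-05), which placed Polk among 39 genes (0.196%) called and at least 2-fold higher. At 6 h Polk was higher by 0.82 (adjusted p = 0.00576, but 0.167 without number 30 in every group and 0.0861 when only those 6 arrays were fitted). Ercc5 was higher by 0.42, which did not pass the test (adjusted p = 0.0627) but did with the array number as a block (0.00558). At 2 h the differences were 0.39 for Ercc5 (adjusted p = 0.169) and 0.47 for Polk (0.312). Ercc1 was 0.41 higher with APAP than with AMAP at 24 h (interval 0.12 to 0.71, adjusted p = 0.100), and the block gave 0.0261 and leaving out APAP array 31 gave 0.0419 with a difference of 0.54. For Xpc, Ddb2, Rrm2b and Polh the 24 h differences were 0.10, 0.13, 0.06 and -0.07, with intervals that included 0. The called genes overall were 19 higher and 33 lower at 2 h and 373 and 555 at 24 h, and with centred arrays 10 and 44, and 302 and 1123.

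**Figure D2:**
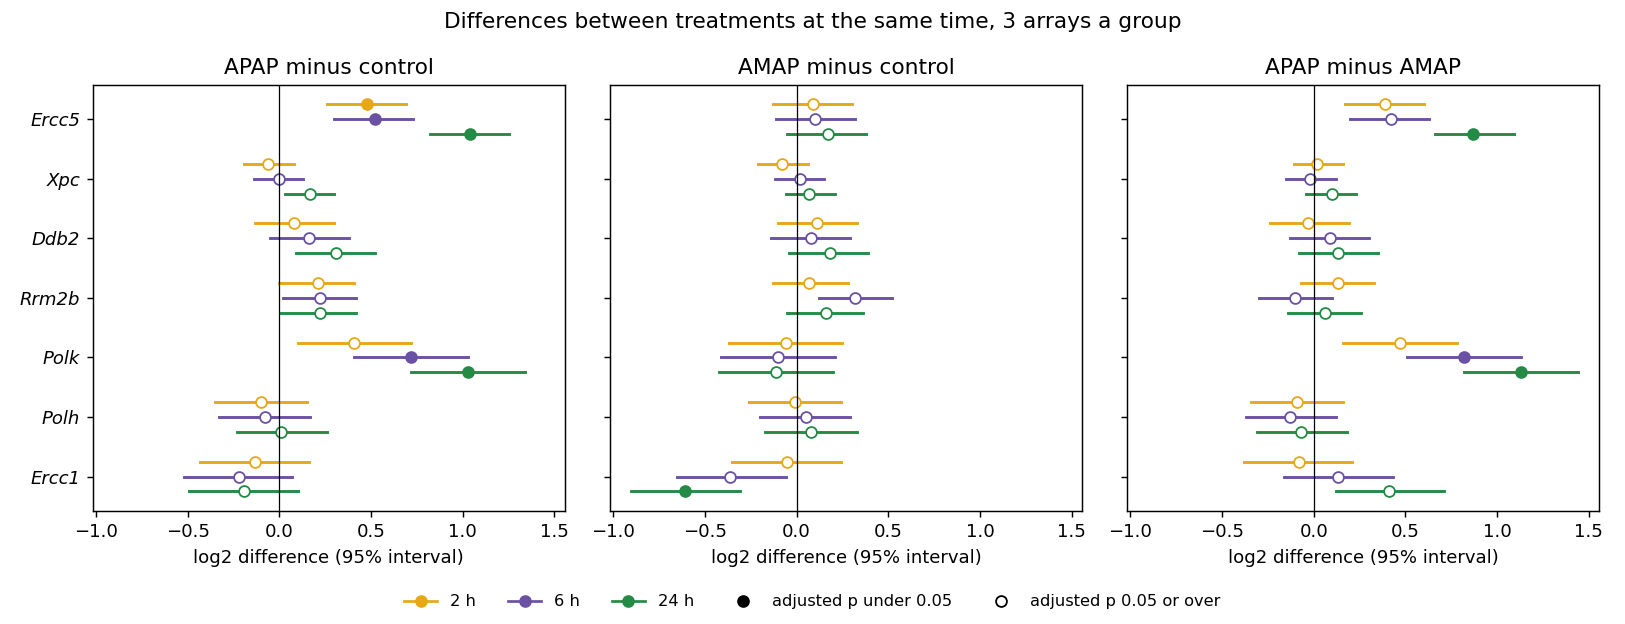
Log2 differences with 95% intervals for the 7 genes in 3 comparisons, with 1 colour per time and filled points for adjusted p below 0.05 in limma. Filled points right of 0 belong to Ercc5 and Polk, and the only filled point left of 0 is Ercc1 with AMAP at 24 h, at -0.61.

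In the control cultures no member was called between times, and the largest of these differences was 0.21, for Polh from 2 to 6 h. The counts over all genes were 0.707% from 2 to 6 h, 0.015% from 6 to 24 h and 1.14% from 2 to 24 h. By limma 0 of the 7 members also had an unadjusted p under 0.05 in these 3 comparisons, where 9.33%, 7.69% and 14% of all genes had. Whether the APAP difference itself depended on time was tested as a difference of differences. The 24 h difference minus the 2 h one was 0.56 for Ercc5 (interval 0.25 to 0.86, adjusted p = 0.105) and 0.62 for Polk (interval 0.18 to 1.05, adjusted p = 0.273). Neither passed in limma, 0 of 7 members were called where 0.356% of genes were, and 3 of 7 had an unadjusted p under 0.05, as had 9.46% of all genes. For Ercc5 the adjusted p was 0.0115 with the array number as a block, 0.0379 with array weights and 0.0471 without the arrays of number 32 at 6 h. From 2 to 6 h and from 6 to 24 h no member was called, where 0% and 0.01% of genes were, and by limma 0 and 1 members had an unadjusted p under 0.05, against 3.41% and 7.14% of all genes. For Ercc1 the AMAP difference at 24 h minus that at 2 h was -0.55 (adjusted p = 0.970), where 0% of genes were called.

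Ordered by group mean, Ercc5 was highest with APAP at 24 h (9.86), then APAP at 2 h and 6 h, and lowest in the 24 h controls (8.82). The 2 h and 6 h APAP groups overlapped each other, and neither overlapped an AMAP or control group. All AMAP and control groups overlapped their neighbours in that order. Polk was highest with APAP at 24 h (9.63), then APAP at 6 h and at 2 h, and the lowest mean, 8.36, was with AMAP at 6 h. Its 3 APAP groups did not overlap each other, and the 2 h one overlapped the 24 h controls, next in the order.

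Ercc5 and Polk also varied together between arrays of 1 group. After each array was set against the mean of its group, the 2 genes correlated at r = 0.93 over 27 arrays, and at 0.93 when the array number was removed as well. The arrays of number 32 at 6 h were low for both genes, for Polk by -0.40 in the control and -0.37 with AMAP. Without the 3 arrays of that number and time, r was 0.91 over 24 arrays. Over the 9 group means r was 0.90, where the points share the treatment. These correlations describe points that share array and normalization, and no p is given. Among the other pairs, the deviations of Polk and Polh had r = 0.67 and those of Ddb2 and Ercc1 had r = -0.73. Polh and Ercc1 had 0.65, Ercc5 and Polh 0.61, and Polk and Ercc1 0.53. Ddb2 had -0.52 with Polk and -0.51 with Ercc5, and the remaining pairs lay between -0.43 and 0.43. The arrays of number 32 at 6 h were also low for Ercc1 (-0.27 in the control, -0.19 with APAP, -0.34 with AMAP) and Polh, and high for Ddb2.

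**Figure D3:**
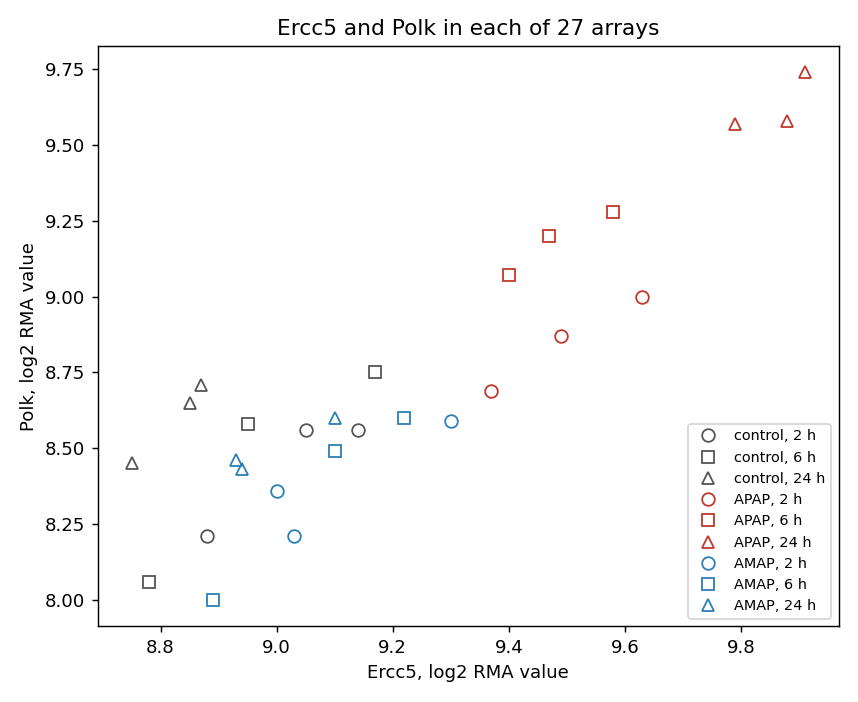
Log2 signal of Ercc5 (horizontal axis) and Polk (vertical axis) in each of the 27 arrays, coloured by treatment with a symbol for each time. The 9 APAP arrays lie at 9.37 or above for Ercc5, to the right of all others, which reach 9.30.

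The genes most like each member were found by the highest correlation over the 9 group means among 14723 genes with a mean log2 signal of at least 6. For Ercc5 they were Ptpdc1 (r = 0.979), Mdm2 (0.975), the ubiquitin ligase that restrains p53, and Mybl1 (0.971). For Polk they were Notch3 (0.988), Rnf169 (0.985) and Rev1 (0.983), another translesion polymerase. For Ddb2 Klhl28 led at 0.987, for Xpc Cracr2b at 0.981, for Rrm2b Dnajb2 at 0.972, for Polh Dlg3 at 0.963 and for Ercc1 Nid1 and Myl9 at 0.940. For the mean of the 7 members they were Notch3 (0.990), Ei24 (0.987), Perp (0.986), Cpt1c (0.984), Scrt1 (0.982) and Bmp8a (0.979). That mean was centred but not scaled. The range of group means was 1.27 for Polk, 1.04 for Ercc5 and 0.25 to 0.61 for the other members. Polk and Ercc5 thus weigh most in it, and it does not describe the members one by one. All of these r values are the highest of many correlations over 9 points, given as descriptions with no p.

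Other repair genes, from lists that left out the members, are set against all genes, of which 0.311%, 1.05% and 3.36% were called higher and 0.371%, 1.44% and 5.97% lower with APAP at 2, 6 and 24 h. Of 40 other nucleotide excision repair genes measured, 0 were called by limma with APAP at 2 and 6 h (0 and 5 at an unadjusted p under 0.05, against 9.26% and 12.3% of all genes), and 1 was higher and 4 lower at 24 h. Uvssa, which acts in transcription-coupled repair, was higher by 0.55, and Pold2, a subunit of the gap-filling polymerase, fell by 0.73. Under median centring 11 of the 40 were called at 24 h in either direction, so that count depends on the scaling. Over all genes centring gave 518 higher and 1675 lower at 24 h, where the deposited values gave 670 and 1190. Of 13 other translesion genes, 1, Rev1, was called higher at 6 h (0.37) and at 24 h (0.60, adjusted p = 1.51e-05). Of 13 other deoxynucleotide supply genes, 3 were lower at 24 h: Tk1 fell by 0.54, Samhd1 fell by 0.46 and Shmt1 fell by 0.31. Base excision and mismatch repair gave 2 higher and 2 lower of 25 at 24 h, with Mgmt higher by 0.42 and Apex1, the abasic site nuclease, at -0.79. Double strand break and crosslink repair gave 2 higher (Fanca, 0.34, and Fancm, 0.31) and 1 lower (Xrcc5, -0.35) of 36 at 24 h, and 7 called under centring. Brip1 of this list was called higher at 6 h (0.29), where centring gave 0 called. Damage kinases and checkpoint genes gave 1 higher (Rad9b, 0.60) and 2 lower (Wee1, -0.49, and Hus1, -0.32) of 15 at 24 h. Earlier, Wee1 was called lower at 2 h (-0.51) and Cdc25b at 6 h (-0.80). Direct partners of the members gave small differences at 24 h: Xpa differed by -0.08, Ercc4, the partner of Ercc1, by -0.01, Ddb1, the partner of Ddb2, by -0.04, and Rrm1, the large reductase subunit, by 0.11, none of which passed the test. Rad23b, which stabilises Xpc, fell by 0.30 (adjusted p = 0.0298).

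The list of p53 regulators and other p53 targets had 7, 13 and 18 of 31 genes called higher with APAP at 2, 6 and 24 h, where 0.311%, 1.05% and 3.36% of all genes were, and none lower. Its median differences were 0.20, 0.38 and 0.53. With AMAP 0 of the 31 were called by limma at any time, and 1, 2 and 9 had an unadjusted p under 0.05, against 6.8%, 9.47% and 11.2% of all genes. The list's median differences with AMAP were 0.01, -0.01 and -0.09. With the array number as a block 1 of the 31 was called with AMAP at 2 h and 1 at 24 h. Over all genes the block called 49 and 345 in these 2 comparisons, where the main fit called 36 and 145. With APAP, Mdm2 rose by 0.70, 0.91 and 1.40, the antiproliferative gene Btg2 by 1.36 at 24 h and Perp by 0.77. This list was compiled with the earlier results of these arrays known, so its count is not independent evidence. Trp53, Cdkn1a, Bax and Gdf15 were not matched and are not analysed here.

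**Figure D4:**
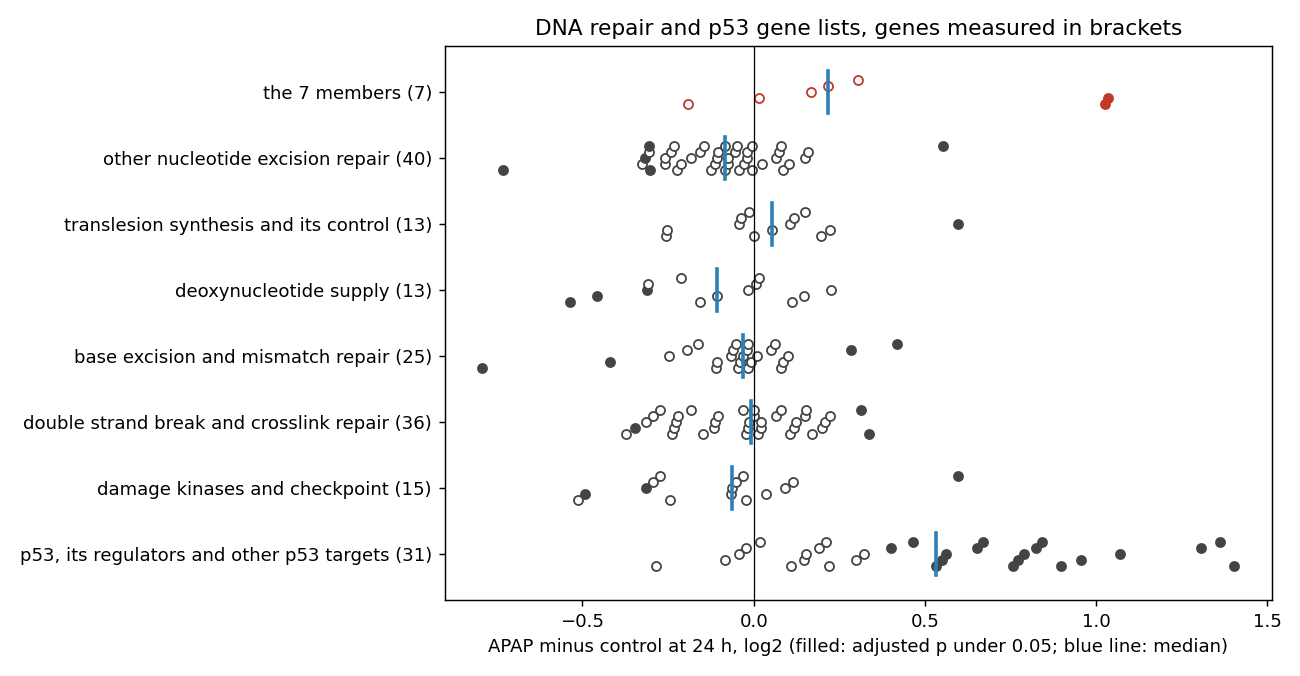
Log2 differences between APAP and control at 24 h for each gene of the lists of repair and p53 genes, 1 point per gene, filled where called, with the 7 members in red and each list's median as a line. The median is -0.08 for other nucleotide excision repair genes, 0.22 for the 7 members and 0.53 for the p53 list.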

How the data were processed

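RNA from TAMH cells was hybridised to 27 Affymetrix Mouse Gene 1.0 ST arrays. Per the submitters' processing notes, the authors used RMA in Affymetrix Expression Console 1.1, which corrects background, normalizes between arrays and summarises probes. The deposited values are log2 signals, used as deposited. Of 35557 probe sets, 21789 had 1 gene symbol, 1621 several and 12147 none. The probe set with the highest mean stood for a gene, which left 19938 genes. One model of 9 group means was fitted with limma 3.58.1 in R 4.3.3 (18 residual degrees of freedom, two-sided). Array numbers paired arrays in 5 of 9 comparisons, by correlated deviations. Alternatives were a replicate block, other scalings, filters and arrays left out. For 3 arrays against 3, an exact test cannot go below p = 0.10. Named genes were the 7 members, those most like them, a fixed panel of partner genes, and the list genes with the smallest p among those called. The members and lists were chosen with earlier results of these data known. Scanner files and detection calls were not used here. The code was tested on simulated data.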

Additional observations from a re-analysis of the deposited data

How the results depend on the processing

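Of 2408 member values under other settings, 2362 kept their side of the threshold, 23 calls were lost, 23 were gained and 0 were reversed. A difference called in neither fit counted as kept even if its sign changed. Polh with APAP at 24 h, for example, ran from -0.10 to 0.17. The replicate block gave 1 called member for APAP against AMAP at 2 h, 2 at 6 h, and 1, Ercc5, for growth of the APAP difference from 2 to 24 h; with the block no member call was lost, and Ercc1 was gained for APAP against AMAP at 24 h. For APAP against AMAP at 6 h the random block, the trended robust fit, quantile normalization, the filter that left 15219 genes and array weights each gave 2, and the fit on only the compared arrays gave 0. That fit also gave 0 for APAP against control at 2 h. Over all genes the calls moved as well. For APAP against AMAP at 6 h the main fit called 95 genes higher. The settings that gave 2 members called 99 to 215 higher, and the fit on only the compared arrays called 21. For APAP against control at 2 h that fit called 34 higher and 52 lower, where the main fit called 62 and 74. Array weights gave 4 for APAP against control at 24 h (Ercc5, Xpc, Ddb2 and Polk), 2 against AMAP at 2 h and 1 for the growth from 2 to 24 h. Over all genes array weights called 1160 higher and 1883 lower for APAP against control at 24 h, where the main fit called 670 and 1190. Against AMAP at 2 h the main fit called 19 higher and 33 lower, array weights 83 and 49, and the block 29 and 41. For the growth from 2 to 24 h the main fit called 34 and 37, array weights 128 and 169, and the block 78 and 109. Testing every probe set gave 0 for AMAP against control at 24 h. Of all 35557 probe sets 30 were then called higher and 49 lower, where the main fit called 62 and 83 of 19938 genes. Leaving out a replicate gave 0 to 1, 0 to 2 and 2 to 3 called members for APAP against control at 2, 6 and 24 h, 0 to 1 for AMAP against control at 24 h, 0 to 1 and 2 to 3 for APAP against AMAP at 6 and 24 h, and 0 to 1 for the growth from 2 to 24 h, where the 1 came without the arrays of number 32 at 6 h, an alternative chosen after the data were seen. The other comparisons gave 0 to 0. Calls over all genes moved here too. For APAP against control at 6 h the main fit called 210 higher and 288 lower. Without number 30 in every group these were 33 and 32, and without number 32 they were 71 and 141. For the growth from 2 to 24 h the fit without number 32 at 6 h called 63 and 83, where the main fit called 34 and 37. The cause of these changes was not tested. Precision is limited by having 3 arrays a group, with a median SE of 0.10 for a difference.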
